A study of Brachypodium distachyon with 6 samples.

Results

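Among the genes of a leaf RNA-seq experiment in the grass Brachypodium distachyon, 443 of 36647 stood high in 1 library of the mutant and in 1 library of the wild type that carry the same number, 3, in the deposited count table. The members were chosen by their measured counts. A gene was taken if it had at least 50 counts in both libraries numbered 3, and if the lower of its CPM values there (the count scaled to the library's total) was at least 2.5 times its highest CPM in the 4 libraries numbered 1 and 2. Of the 16103 genes with at least 50 counts in both libraries numbered 3, 2.75% met the limit on CPM. The excess of the libraries numbered 3 is therefore the rule itself and is described without a test.

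The mutant is sid/bdmute-1 and the wild type is Bd21-3, the line whose gene identifiers the table carries. Each genotype had 3 libraries, and each library was made from the RNA of 25 mature zones, cut 25 to 30 mm above the base of leaf 2 of seedlings grown for 7 days at 20 degrees on MS plates with no treatment. The labels number the libraries 1, 2 and 5 in each genotype. Columns 1 and 2 of the table were matched to the samples with the same number and column 3 to its genotype only. The labels give no date, batch or growth lot, and do not say that the replicates of a genotype were grown apart, so p-values measure only the spread between these libraries.

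MUTE is a transcription factor of the basic helix-loop-helix family that acts in the stomatal lineage. In grasses, the guard cells of a stoma are flanked by subsidiary cells, which stomata of the mutant lack. The mature zone of a grass leaf lies above the zones of division and elongation, so its stomata are already formed.

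The identifiers of the 443 genes carry no names in the files, and 0 identifiers of the table matched the 31335 RefSeq genes of Brachypodium distachyon. No role is therefore given for any gene, the tissue could not be checked against its marker genes, and no sequence is shown. Identifiers are printed here without their shared prefix, BdiBd21-3, and the point after it.

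Depth did not set the libraries numbered 3 apart. They held 29189262 counts in bdmute and 31090670 in wild type, between the 22910448 and 34294407 counts that bounded the other 4. They differed in composition. The 10 most abundant genes took 20.8% of counts in bdmute library 3 and 21.5% in wild-type library 3, against 21.7% to 24.0% in the other 4 libraries. Genes with at least 1 count numbered 26930 in bdmute library 3 and 26894 in wild-type library 3, against 26248 to 26663 in the others. The TMM factor, which corrects the library size for such differences in composition, was 1.27 for bdmute library 3 and 1.16 for wild-type library 3, against 0.849 to 0.962 for the others. The part of these differences in the membership of single genes was not tested, but dividing by TMM-adjusted library sizes left 232 of the 443 genes past the same limits.

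The 443 genes together held 4.704% of all counts in bdmute library 3 and 3.87% in wild-type library 3. In bdmute libraries 1 and 2 they held 0.397% and 0.673%. In wild-type libraries 1 and 2 they held 0.365% and 0.739%. The 95% Wilson interval of each of these shares reached at most 0.00768 percentage points to either side, which covers counting error only. Over all 3 libraries the share averaged 1.92% ± 2.41 in bdmute and 1.66% ± 1.93 in wild type (SD, n = 3 each). The rule sets most of this spread, as it puts 1 library with a high share into each genotype. For the difference of 0.266 percentage points the two-sided exact permutation p was 0.8, but with 1 library numbered 3 on each side it could not have gone below 0.5, so it says nothing about a genotype difference.

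The median CPM of the 443 genes was 24.1 in bdmute library 3 and 19.2 in wild-type library 3. It was 2.02 and 3.19 in bdmute libraries 1 and 2, and 1.75 and 3.47 in wild-type libraries 1 and 2. The median of the 20998 genes tested was 8.62 in bdmute library 3 and 7.78 in wild-type library 3, and from 5.19 to 6.07 in the other 4 libraries. The tested genes as a whole thus also had higher CPM in the libraries numbered 3, by less than the members. CPM is not corrected for gene length, so values are compared between libraries and not between genes. In bulk tissue, fewer cells that express a gene and less RNA of that gene per cell cannot be told apart.

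**Figure D1:**
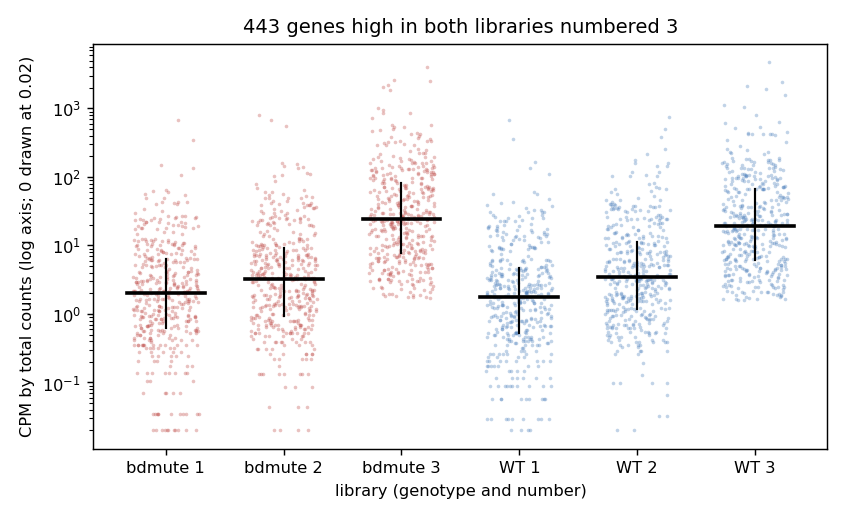
CPM by total counts (log axis) of each of the 443 genes in each of the 6 libraries. Each point is 1 gene, the horizontal line is the median and the vertical line runs from the lower to the upper quartile. The medians of 24.1 in bdmute library 3 and 19.2 in wild-type library 3 stand above those of the other libraries, as the rule requires, and in each genotype the median of library 2 exceeds that of library 1.

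A few genes held much of the members' counts. Averaged over both libraries numbered 3, the member with the highest CPM held 10.1% of the members' summed CPM, the top 10 held 41.6% and the top 100 held 82.7%, where longer genes collect more reads. The first of these, 1G0337900, is named after its values were seen. Its CPM was 64.4, 684 and 3980 in bdmute libraries 1, 2 and 3, and 56.0, 500 and 4695 in wild-type libraries 1, 2 and 3. Library 3 was the highest and library 1 the lowest in both genotypes, and the genotypes overlapped. Its log2 fold change of bdmute over wild type was -0.26 ± 1.61 (SE, edgeR adjusted p = 0.99996).

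The size of the excess varied widely. The ratio of the lower CPM of the libraries numbered 3 to the highest CPM of the others had a median of 3.40 and ran from 2.504 to 335. For 163 genes it was under 3, for 147 it was from 3 to under 5, for 79 from 5 to under 10, for 27 from 10 to under 20 and for 27 it was 20 or more. The member closest to the limit had CPM values of 27.1, 60.9 and 202 in bdmute libraries 1, 2 and 3, and of 18.0, 70.9 and 178 in wild type. The gene just outside, at a ratio of 2.4997, had 0.593, 0.698 and 2.12 CPM in bdmute and 0.612, 0.811 and 2.03 CPM in wild type. Another 384 genes passed the limit on CPM but not the minimum of 50 counts.

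Both genes with the highest ratios were almost silent outside the libraries numbered 3. 4G0096800 had 9, 9 and 10514 counts in bdmute libraries 1, 2 and 3, and 14, 9 and 4250 counts in wild-type libraries 1, 2 and 3. Its ratio was 335, with a 95% counting interval of 199 to 613, and its log2 fold change of bdmute over wild type was 1.26 ± 2.75 (SE, edgeR adjusted p = 0.99996). 1G0972800 had 1, 2 and 3896 counts in bdmute and 2, 4 and 771 counts in wild type, a ratio of 191 with a counting interval of 74.4 to 703, and did not pass the filter on low counts used for the tests. For both genes the libraries numbered 1 and 2 of the genotypes lay within a few counts of each other, while bdmute library 3 was above wild-type library 3. In all, 8 members had at most 3 counts in each of the 4 other libraries, and 15 had 0 counts in at least 1 library.

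Members made up a similar share of the genes in each group of identifiers. The first digit of the identifier runs from 1 to 5, and among genes with at least 50 counts in both libraries numbered 3, members made up 2.65%, 2.70%, 2.88%, 2.83% and 2.74% of those with the digits 1 to 5. In the order of the table, 79 members lay next to another member, in 35 pairs and 3 runs of 3. Within these 38 runs, the highest ratio was less than 2 times the lowest in 25 runs and 38.4 times the lowest in the most uneven run. 1G0972800 lies in such a run, as does 3G0187200, described with the genotypes. How reads shared by similar neighbours were counted is not given in the sources used here, so the values of neighbours may not be independent. The number of neighbouring members that a random order would give was not computed, and the similar shares by digit say nothing about it.

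The libraries numbered 1 and 2 also differed, although the rule uses only the highest of these 4 libraries and sets no order among them. Differences were taken on the log2 scale of TMM-normalized CPM with a prior count of 2. In bdmute, library 2 exceeded library 1 for 353 of the 443 genes, with a median difference of 0.54, and in wild type for 397 genes, with a median of 0.92. The medians over the 20998 tested genes were 0.01 in each genotype. Library 2 was above library 1 in both genotypes for 332 members (74.9%), where the background over tested genes was 27.6%. Library 1 was above library 2 in both for 24 members (5.42%), where the background was 25.7%.

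The size of this difference was shared between genotypes as well. At least 2-fold more in library 2 in both genotypes was found for 112 members, or 25.3%, against a background of 1.67%. At least 4-fold more was found for 26 members, or 5.87%, against a background of 0.19%. The reverse, at least 2-fold more in library 1 in both genotypes, was found for 1 member (background 0.348%). Of the 350 tested genes with at least 2-fold more in library 2 in both genotypes, 109 were members, which is 31.1% of those genes and 25.4% of the members tested. 1G0337900, at 3.42 in bdmute and 3.13 in wild type on this log2 scale, was among the members with at least 4-fold more. Across the 443 members, the difference between libraries 2 and 1 in bdmute correlated with that in wild type (Pearson's r = 0.57, Spearman's rho = 0.55). Across the tested genes the values were 0.05 and 0.06. The libraries share no reads between genotypes, but members differ in depth and are not independent, so the correlations only describe the libraries.

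**Figure D2:**
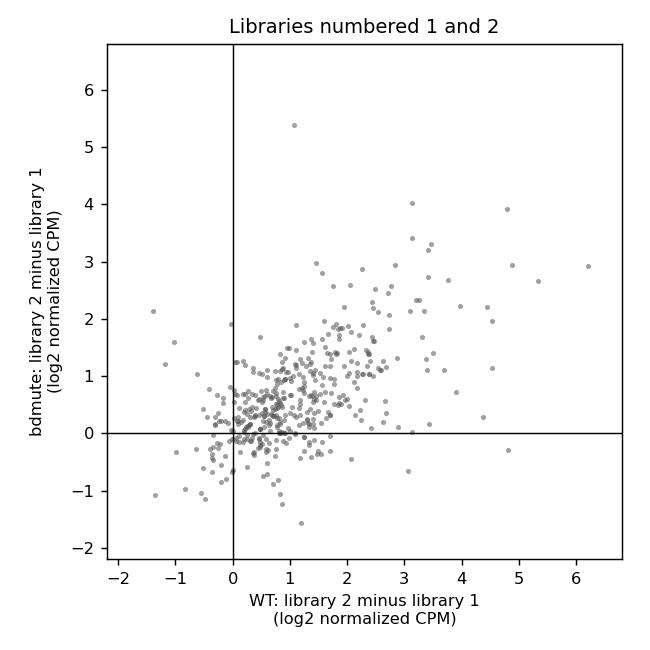
Difference between libraries 2 and 1 on the log2 scale of TMM-normalized CPM for each of the 443 genes, in bdmute (vertical axis) and wild type (horizontal axis). Of the genes, 332 lie above 0 on both axes and 24 lie below 0 on both.

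A mirrored rule gave fewer genes. At least 50 counts in each of the 4 libraries numbered 1 and 2, with their lowest CPM at least 2.5 times the highest of the libraries numbered 3, held for 82 genes, or 0.587% of the 13977 genes that could meet it. Among these 82 genes, library 1 was above library 2 in both genotypes for 52, where the background over tested genes was 25.7%. Library 2 was above library 1 in both for 2, where the background was 27.6%. Both rules use CPM by total counts, by which the tested genes as a whole were higher in the libraries numbered 3. This scaling makes the limit easier to pass upward than downward, and TMM-adjusted library sizes left 232 of the 443 members. The mirrored count is given by total counts only, and the part of scaling in the difference was not tested. The difference between these counts and those of the 443 members was not tested.

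The study's own comparison asks which transcripts differ between bdmute and wild type in mature leaf. Members could not separate the genotypes, because by the rule library 3 of each genotype lies above libraries 1 and 2 of the other. Accordingly, 0 of the 443 members had all libraries of one genotype above all of the other, against a background of 8.58% of tested genes. With genotype as the only term, the quasi-likelihood test of edgeR, with p-values adjusted by Benjamini and Hochberg, called 0 of the 429 members that passed the filter on low counts, against 0% of all genes. Unadjusted p-values under 0.05 were reached by 0 members, the smallest being 0.206, against a background of 4.85%. The authors' deposited table gives an adjusted p-value for 382 members. It calls 0 of them at 0.05, with a background of 0.782%, and the smallest unadjusted p-value there for a member was 0.106. As the rule sets the spread within each genotype, these counts do not show that the genotypes were alike.

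With a term that marks the libraries numbered 3, which removes their excess from the spread, edgeR's quasi-likelihood test again called 0 of 429 members, against 0.11% of tested genes. Unadjusted p-values under 0.05 were reached by 18 members (4.196%), 5 higher and 13 lower in bdmute, against a background of 9.39%. The term leaves the distance between libraries 1 and 2 in the spread, and that distance was larger for members than for tested genes. The lower share therefore does not show that the genotypes were alike. The smallest adjusted p-value of a member in this edgeR fit was 0.155. DESeq2's Wald test with the same term called 4 of the 443 members, all lower in bdmute. That is a smaller share than the background of 2.03% for calls in either direction and 1.4% for lower calls. The edgeR adjusted p-values of these 4 genes with the term ran from 0.155 to 0.355, so the calls rest on the choice of test.

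These 4 genes, of which 3G0413400 and 3G0622000 are named after their values were seen, were lower in bdmute at each library number. As the genes were picked by their lower calls, this order describes them and adds no support. 3G0413400 had 6.42, 5.19 and 102 CPM in bdmute libraries 1, 2 and 3, against 15.5, 24.2 and 121 CPM in wild-type libraries 1, 2 and 3. The genotypes were clearly apart in libraries 1 and 2 and close in library 3, and its DESeq2 log2 fold change with the term was -1.42 ± 0.41 (SE, adjusted p = 0.0289). 3G0622000 had 7.99, 6.59 and 68.3 CPM in bdmute, against 23.01, 15.05 and 102 CPM in wild type, with a DESeq2 log2 fold change of -1.27 ± 0.33 (SE, adjusted p = 0.00953). The other two, 3G0472900 and 5G0256500, had DESeq2 adjusted p-values of 0.0153 and 0.00660, and were also the genes that the rule for naming picked as lowest in bdmute.

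3G0472900 had 8, 22 and 896 counts in bdmute libraries 1, 2 and 3, and 51, 126 and 2289 counts in wild-type libraries 1, 2 and 3. Bdmute was lower at each number, while bdmute library 3 stayed above wild-type libraries 1 and 2. Its mean was 8.49 ± 13.6 TMM-normalized CPM in bdmute and 23.3 ± 34.7 in wild type (SD, n = 3), and its log2 fold change with genotype alone was -1.45 ± 1.79 (SE, edgeR adjusted p = 0.99996). With the third-library term the edgeR log2 fold change was -1.94 ± 0.54 (SE, adjusted p = 0.355). 5G0256500 had 26, 16 and 189 counts in bdmute and 62, 73 and 382 counts in wild type. Its log2 fold change with genotype alone was -1.17 ± 0.93 (SE, edgeR adjusted p = 0.99996). With the term, its edgeR log2 fold change of -1.34 ± 0.23 (SE) had the smallest adjusted p-value among members, 0.155.

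Among the 131 members with a positive log2 fold change and at least 50 counts in each bdmute library, 3G0187200 and 1G0326600 had the highest log2 fold changes with genotype alone. 3G0187200 had 119, 143 and 2674 counts in bdmute libraries 1, 2 and 3, and 44, 167 and 592 counts in wild-type libraries 1, 2 and 3. Bdmute was higher in libraries 1 and 3, by TMM-normalized CPM also slightly in library 2, and its log2 fold change was 1.78 ± 1.27 (SE, edgeR adjusted p = 0.99996). 1G0326600 had 118, 107 and 3180 counts in bdmute and 52, 305 and 885 counts in wild type. Wild-type library 2 was above bdmute library 2, whereas bdmute was the higher genotype in libraries 1 and 3. Its log2 fold change was 1.33 ± 1.37 (SE, edgeR adjusted p = 0.99996).

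**Figure D3:**
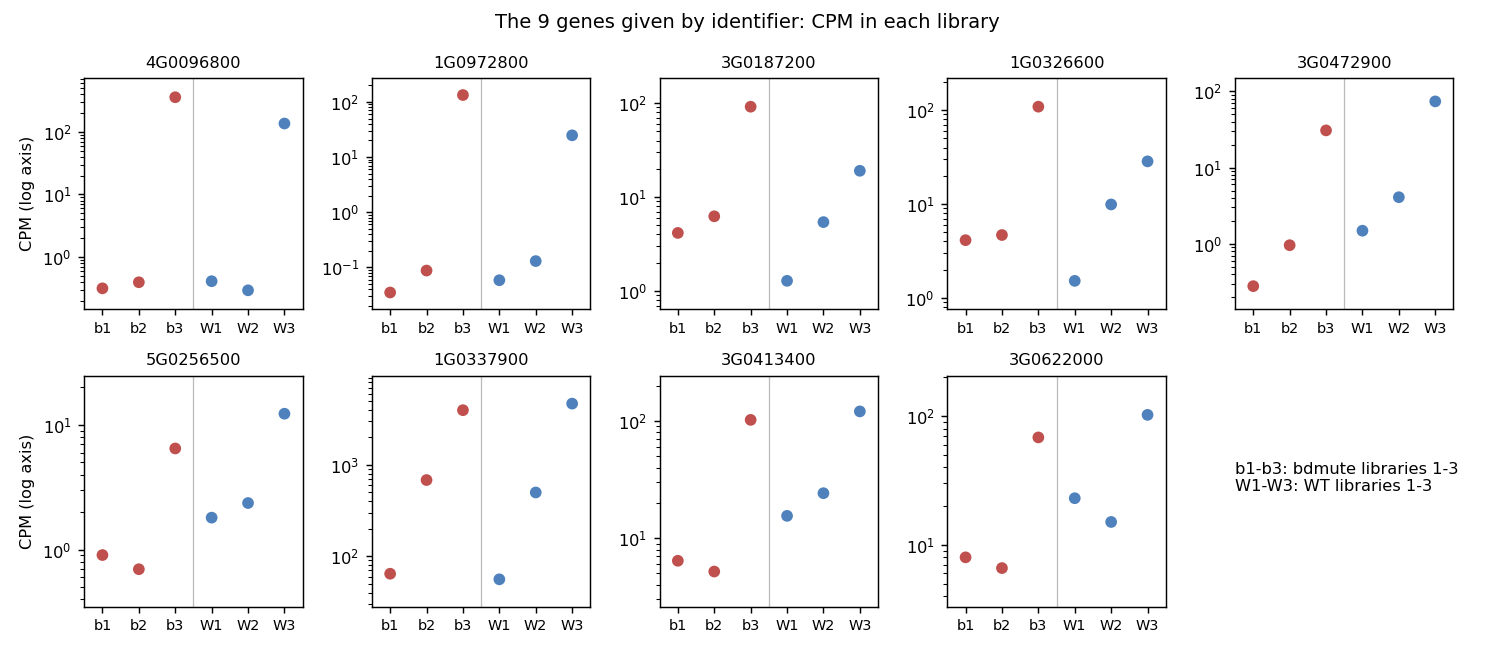
CPM by total counts (log axis, scaled to each gene) in bdmute libraries 1 to 3 and wild-type libraries 1 to 3 for the 9 genes given by identifier. Each point is 1 library. In all 9 genes the libraries numbered 3 are the highest of both genotypes, as the rule requires. In 3G0413400, 3G0472900, 3G0622000 and 5G0256500, picked for lower values in bdmute, bdmute is lower than wild type at each number.

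The libraries of the same number were also set side by side, with 1 library per genotype and no test. In library 1, bdmute was above wild type for 240 members (54.2%) by TMM-normalized CPM, with a background of 50.9%. In library 2 it was above for 103 members (23.3%), with a background of 51.4%. In library 3 it was above for 280 members (63.2%), with a background of 47.9%. By total counts, without the TMM factors, the figure for library 3 was 346 members (78.1%), with a background of 60.5%. The median log2 difference of bdmute minus wild type was 0.05 in library 1, -0.36 in library 2 and 0.13 in library 3, so that the genotypes differed in both directions by library number.

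The excess of library 3, taken as log2 TMM-normalized CPM in library 3 minus the mean of libraries 1 and 2, could differ between the genotypes, because the rule sets a minimum in both and no direction between them. Over the 20998 tested genes the excess in bdmute correlated with that in wild type (Pearson's r = 0.72), so sharing it was not particular to the members. The median excess over the members was 2.5004 in bdmute and 2.13 in wild type. The excess was larger in bdmute for 318 of the 443 genes (71.8%), where the background was 46.7%. The median difference was 0.31, against -0.04 over the tested genes. For single genes, edgeR's quasi-likelihood test of the interaction of genotype with the third-library term called 0 of 429 members, against 0% of all genes. With 1 library numbered 3 per genotype, this test takes its spread from libraries 1 and 2 alone. The distance between those libraries was larger for members than for tested genes. The 0 calls therefore do not show that the excess was alike in both genotypes. Unadjusted p-values under 0.05 were reached by 11 members, which is 2.56% and close to the background of 2.57%. Of these 11, 10 had the larger excess in bdmute, as did 345 of the 539 tested genes with such a p-value. As a share of the 429 members, these 10 are under 2.56% and above the background of 1.64% for that direction. This difference in shares was not tested. The smallest unadjusted p-value was 0.00132, and the lowest value after adjustment in edgeR was 0.99999.

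The direction of this difference was reversed without wild-type library 2, and its size moved with each library left out. Without wild-type library 2, the excess was larger in bdmute for 182 members and the median difference was -0.13. Without bdmute library 1 it was larger for 238 members, with a median of 0.04. Without wild-type library 1 it was larger for 404 members, with a median of 0.84, and without bdmute library 2 for 379, with a median of 0.66. The same counts over the tested genes were not computed. In edgeR's interaction fits without 1 of these libraries, the median log2 value ran from -0.18 to 0.82 over members. Over all genes tested it ran from -0.05 to -0.0025. The larger excess in bdmute and the distance between libraries 1 and 2, with medians of 0.54 in bdmute and 0.92 in wild type, cannot be told apart here.

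**Figure D4:**
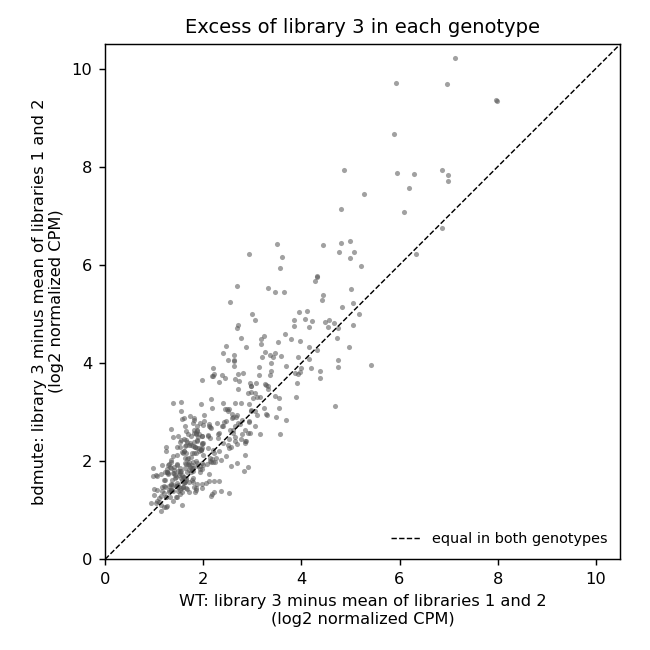
Excess of library 3 over the mean of libraries 1 and 2 (log2 TMM-normalized CPM) in bdmute (vertical axis) and wild type (horizontal axis). Each point is 1 of the 443 genes, and 318 lie above the dashed line of equal excess, a count that was 182 without wild-type library 2.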

How the data were processed

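The authors deposited raw counts per gene, not normalized, for 6 libraries. Per the file headers they came from alignment files, and the submitters' processing notes name FastQC, Bowtie2 and DESeq2. Build, counting tool, annotation version and strand setting are not given in the sources used here. The authors' deposited table of the genotype comparison holds, per the file headers, a mean normalized count (a signal), log2 fold changes with standard errors, a Wald score, p-values and adjusted p-values. DESeq2 run here as bdmute over wild type matched its log2 fold changes within 5.19e-05, so positive means higher in bdmute.

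From the counts, edgeR 4.0.16 in R 4.3.3 was run with filterByExpr (20998 genes kept), TMM and quasi-likelihood tests, adjusted over all genes tested. The common dispersion was 0.168 with genotype alone and 0.0817 with the third-library term. Standard errors were obtained from the fold change and the F statistic. DESeq2 1.42.0, other scalings, no filter, a threshold of 0.1, a replicate block and leaving out each library were alternatives. Of the 443 members, 14 failed the filter.

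Genes named were the 2 with the highest ratio and, with at least 50 counts in each library of the higher genotype, the 2 highest and 2 lowest by log2 fold change with genotype alone. Members, terms and alternatives were chosen with earlier results of these data known. Libraries of 1 genotype differed by a chi-square of at least 44.1 per degree of freedom, so none was a copy of another of the same genotype. Marker genes and pathways were not analysed here.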

Additional observations from a re-analysis of the deposited data

How the results depend on the processing

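The number of genes meeting the rule was 232 with TMM-adjusted library sizes, 222 with DESeq2's size factors, 803 at a 2-fold limit and 172 at a 4-fold limit. It ran from 460 to 663 when 1 of the libraries numbered 1 and 2 was left out, which can only add genes. All genes kept under the scalings were among the 443.

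EdgeR called 0 members in the 3 designs with each scaling, no filter, a threshold of 0.1 or 1 library left out (16 fits). This 0 says little, as edgeR called at most 78 of all genes (third-library term, threshold 0.1). DESeq2 called 4 members with the third-library term and 0 otherwise. Unadjusted p-values under 0.05 numbered from 0 to 26 members with genotype alone, from 15 to 69 with the third-library term and from 9 to 75 for the interaction over the fits without 1 library. The highest of these left out bdmute library 3 (6.05% of members tested, against 6.34% of all genes), wild-type library 2 (15.6% against 14.6%) and wild-type library 1 (16.9% against 9.77%). With the libraries numbered 1 and 2 alone, 0 members were called and 17 had such a p-value (4.12% against 6.98%). The cause was not tested.

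The replicate block by library number gave 0 called members, with 33 unadjusted p-values under 0.05 (7.69% of members tested, against 10.3% of all genes), and 0 for the interaction, with 30 (6.99% against 2.97%). Deviations from the genotype means correlated between genotypes at 0.70, -0.20 and 0.72 for numbers 1, 2 and 3 over 20998 genes. The 3 deviations of a genotype sum to 0, so these values are not independent. Neither the labels nor these correlations settle whether the numbers pair the libraries. The fit with genotype alone did not pair them. The paired exact permutation p of the share of counts was 0.75, where 0.25 is the smallest that 3 pairs allow.

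The difference in the share of counts, 0.266 percentage points, ran from -1.12 without bdmute library 3 to 1.37 without wild-type library 3, ends that the rule fixes by giving each genotype 1 library with a high share, and was -0.0167 with the libraries numbered 1 and 2 alone. Total-count scaling moved the median genotype log2 fold change of all genes by 0.15.

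Leaving out library 3 of 1 genotype likewise pushes members toward the other genotype by construction, so the following ranges show no stability of single genes. Without 1 library, the log2 fold change with genotype alone ran from -1.46 to 2.26 for 1G0326600, from -0.58 to 2.84 for 3G0187200, from -5.20 to 1.40 for 3G0472900, from -6.74 to 7.84 for 4G0096800 and from -1.9996 to 2.02 for 1G0337900, which was 0.0671 with the third-library term. The range of 5G0256500 was -2.62 to -0.09.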
